A study of Mus musculus with 12 samples.

Results

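Estradiol was set against control in the CD44+ fraction of mouse bone marrow cultures, on the 6 of 12 arrays whose titles name CD44+ cells. Primary cultures of whole bone marrow from female C57BL/6 mice aged 6 weeks were kept for 1 week with 1 nM 17β-estradiol, the most potent natural estrogen, or without it. The labels call CD44+ cells stromal cells and give 3 control and 3 estradiol arrays; the other 6 arrays hold c-kit+ cells of the same kinds of culture, 3 control and 3 estradiol, which the labels call stem cells. All animals were of 1 strain, sex and age. Nothing in the labels says whether replicates came from separate cultures or animals. Each p-value therefore rests on the spread between samples of a group, which may be technical. That spread was pooled over all 12 arrays, so the c-kit+ arrays also enter the p-values of the CD44+ comparison. The number of arrays limits the precision throughout.

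Estradiol acts through the nuclear receptors Esr1 and Esr2 and through the membrane receptor Gper1. In bone marrow, macrophages and stromal cells answer inflammatory signals through NF-κB, a family of transcription factors held in the cytoplasm by IκB proteins. When IκB proteins are degraded, NF-κB enters the nucleus and switches on cytokines, chemokines, adhesion molecules, costimulatory receptors and its own inhibitors, which then limit the response. Interleukin 1, interleukin 6 and TNF made by marrow cells are known to drive bone resorption, and loss of estrogen is known to speed it.

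Levels are log2 values made by RMA, a method that corrects background, equalises the arrays and summarises each probe set (the group of probes for 1 transcript). A difference of 1 on this scale is a doubling. A gene is represented by 1 probe set, and a level compares arrays for that gene and does not rank genes. As a guide to background, 14 probe sets of Y-linked genes, which female mice lack, had means up to 4.3. By that level 13001 of 18193 genes were above background on the CD44+ arrays. A gene passed where its adjusted p was under 0.05 (limma, Benjamini-Hochberg over all 18193 genes). Values in a sentence run from replicate 1 to replicate 3.

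The label was first set against markers. Cd44 read 12.28, 12.21 and 11.85 on control arrays and 12.28, 12.46 and 12.25 on estradiol arrays, and 11.76 to 12.03 on the c-kit+ control arrays, so it was bright in both fractions. Kit read 3.79, 4.22 and 4.02 on control arrays and 4.09, 3.86 and 3.84 on estradiol arrays of CD44+ cells, and 3.88 to 4.08 on c-kit+ arrays, all at background. Of 13 macrophage and monocyte markers 12 were above background in the CD44+ fraction, and Cd163 was not. Mean control levels were 13.99 for Csf1r, the M-CSF receptor, 13.28 for Adgre1, a macrophage surface receptor, and 14.07 for Lyz2, a lysozyme. Of 15 mesenchymal and osteoblast markers 12 were above background, with control means of 12.18 for the smooth muscle actin Acta2, 10.89 for the collagen chain Col1a2 and 9.47 for Cxcl12, and Thy1, Lum and Ibsp were not. Those counted also included Sp7 (4.83), Lepr (5.03), Alpl (5.06) and Dcn (5.32), whose control means were low. The mean level of the mesenchymal list was 6.53 to 7.26 on CD44+ control arrays and 5.4 to 5.75 on c-kit+ control arrays. That of the macrophage list was 10.36 to 10.52 on CD44+ control arrays and 10.6 to 10.68 on c-kit+ control arrays. Macrophage transcripts were thus bright in both fractions. Counts above background say little of cell type, as 13001 of all 18193 genes were above it. Among the other marker lists the share ran from 4 of 10 (endothelial) to 10 of 11 (neutrophil). Macrophage transcripts (Csf1r, Adgre1 and Lyz2) and stromal transcripts (Acta2 and Col1a2) were both well above background in the CD44+ RNA. In such bulk RNA, more cells of a type and more RNA per cell cannot be told apart.

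With estradiol 53 of 18193 genes passed (0.291%), 51 higher (0.28%) and 2 lower (0.011%), and 29 of the 53 differed by at least 1 on the log2 scale. Among the larger rises were cytokines (Il12b, Il6 and Il1b), the chemokine Cxcl10, the NF-κB activator Malt1, the receptor Cd40, the demethylase Kdm6b and the prostaglandin synthase Ptgs2. Larger than the rise of Ptgs2 were also those of 2610024D14Rik, a RIKEN transcript, Maff, Rab20 and Mefv. The 51 rises had a median of 1.03, against 0.01 over all genes and 0.04 over genes above background. These genes were chosen by p on the same arrays, so a large median and separate groups follow in part from that choice. For each of the 51 higher genes the lowest estradiol array was above the highest control array. Over all genes 6.75% showed that order and 5.92% the opposite one, and 978 genes (5.38%) had an unadjusted p under 0.05. A fit to the 6 CD44+ arrays alone, without the spread of the c-kit+ arrays, passed 58 genes, with 45 of the 53 among them.

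CD44+ arrays of equal replicate number went together: deviations from the group means correlated at 0.303, 0.368 and 0.322 between control and estradiol arrays of equal number. Between arrays of unlike number the correlations ran from -0.358 to 0.014. With the replicate number as a block 114 genes passed (0.627%), 106 higher (0.583%) and 8 lower (0.044%). These included 50 of the 53, and the 3 lost were Ccrl2, Slc15a3 and Igsf6. The difference within a pair was smallest in the replicate 1 pair for 45 of the 53 genes (84.9%), against 45.3% of all genes. Among the 51 rises the highest control array was replicate 1 for 32 genes, replicate 2 for 16 and replicate 3 for 3.

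**Figure D1:**
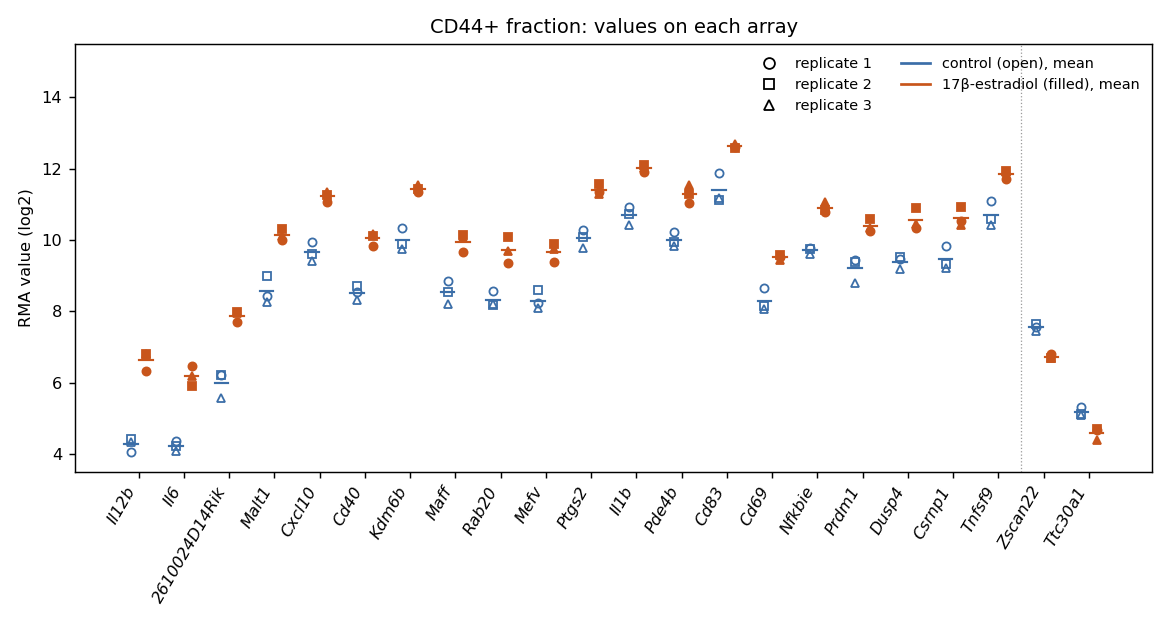
RMA values (log2, vertical axis) of the 20 largest rises and both falls (horizontal axis) on each CD44+ array. Open symbols are control and filled symbols estradiol arrays, the shape gives the replicate number and short lines are group means; estradiol arrays lie above control arrays for each rise and below them for Zscan22 and Ttc30a1.

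**Figure D2:**
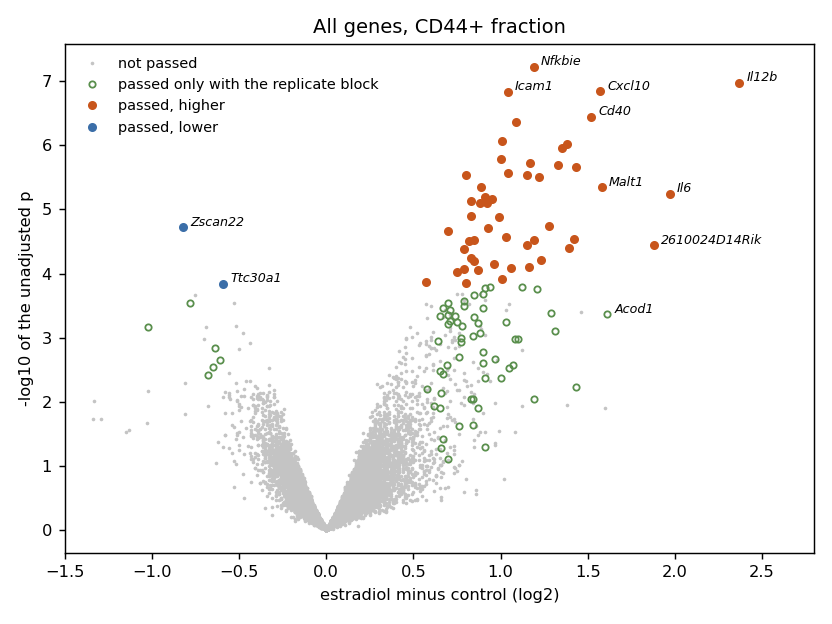
Each point is 1 of 18193 genes, placed by its estradiol minus control difference in CD44+ cells (log2, horizontal) and minus log10 of its unadjusted p (vertical). The 51 genes that rose and the 2 that fell are filled, and open circles are the 64 genes that passed with the replicate block only.

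Among cytokines Il12b changed most. It encodes the p40 subunit that interleukins 12 and 23 share. Il12b read 4.05, 4.43 and 4.32 on control arrays and 6.33, 6.79 and 6.8 on estradiol arrays, a rise of 2.37 (SE 0.22, 5.17-fold, adjusted p = 0.000669). The control arrays were at background, so the fold depends on values there, and the pairs differed by 2.27, 2.36 and 2.48. A second Il12b probe set, with control values of 4.54, 4.4 and 4.31, read 4.71, 4.8 and 4.79 with estradiol and did not pass (0.34, adjusted p = 0.958 over all probe sets). Il6, an inflammatory cytokine that also promotes bone resorption, read 4.35, 4.21 and 4.07 against 6.46, 5.89 and 6.18 and rose by 1.97 (SE 0.27, adjusted p = 0.00513). Its control mean too was at background, and these were the 2 such genes among the 53.

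Il1b, the secreted form of interleukin 1, read 10.93, 10.72 and 10.42 on control arrays and 11.91, 12.11 and 12.03 on estradiol arrays, a rise of 1.33 (SE 0.16, 2.51-fold, adjusted p = 0.00307). It was well above background in both groups, which did not overlap. Its neighbour on chromosome 2, Il1a, rose by 1.03 (adjusted p = 0.0151), from 8.2, 8.5 and 8.27 to 9.11, 9.57 and 9.39. Tnfsf9, the ligand of the T cell receptor 4-1BB, rose by 1.15 (adjusted p = 0.0175), from 11.1, 10.58 and 10.41 to 11.7, 11.95 and 11.9. Lif, a cytokine of the interleukin 6 family, rose by 0.85 (adjusted p = 0.0155), from 5.24, 4.8 and 5 to 6.01, 5.65 and 5.92. Of 22 measured interleukins and TNF family cytokines these 6 rose, none fell and 16 did not pass, with a list median of 0.39. Tnf itself had 0.68 (adjusted p = 0.0863). Il1a, Tnfsf9 and Lif lost their calls without control replicate 3 or estradiol replicate 3, Il1a and Tnfsf9 also without estradiol replicate 2, Tnfsf9 and Lif without control replicate 2, and Lif without estradiol replicate 1, with probe sets averaged per gene and with the 6 CD44+ arrays alone.

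Chemokines draw leukocytes into tissue, and in this family Cxcl10, induced by interferon and NF-κB, rose. Cxcl10 read 9.94, 9.6 and 9.42 on control arrays and 11.06, 11.26 and 11.36 on estradiol arrays, a rise of 1.57 (SE 0.15, 2.98-fold, adjusted p = 0.000669). The groups did not overlap, and control replicate 1 was the highest control array. The neutrophil chemokine Cxcl3 passed with the block only (1.29, adjusted p = 0.0927 without it and 0.00211 with it), as did Cxcl5 (1.43, 0.457 and 0.0284), whose values of 4.43, 3.68 and 3.73 against 6.78, 4.42 and 4.93 overlapped and whose control mean was at background. Of 13 CXC chemokines 1 rose, 12 did not pass and the median was 0.31. None of 15 CC chemokines passed in limma, with or without the block (median 0.19). Of these Ccl3 had 0.71 (adjusted p = 0.129), Ccl4 0.74 (adjusted p = 0.429) and Ccl2, the main monocyte attractant, 0.48 (adjusted p = 0.719), with no overlap between groups for any of the 3. All estradiol arrays were above all control arrays for 5 of the 15 CC chemokines and for 6.75% of all genes, so this order alone is weak evidence. Ccrl2, a receptor that binds chemerin, rose by 1.06 (adjusted p = 0.0322), lost its call with the block (adjusted p = 0.0553), after a second quantile normalization and without control replicate 2 or 3 or estradiol replicate 2 or 3.

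The promoters of Il12b, Il6 and Cxcl10, the cytokine and chemokine genes with the largest rises, are shown to set their motif letters beside their expression. The windows are RefSeq's (GRCm38.p6), written 5′ to 3′ on the gene's strand, from 250 bases before the transcription start to 50 after it. Capitals mark matches to the κB letters (GGG, any 2 bases, TT, any base, CC), the AP-1 letters TGANTCA and the interferon-stimulated response element letters (GAAA, any 2 bases, GAAA). Il12b lies at chr11:44399813-44400112 on the plus strand, Il6 at chr5:30012864-30013163 on the plus strand and Cxcl10 at chr5:92348840-92349139 on the minus strand.
Il12b: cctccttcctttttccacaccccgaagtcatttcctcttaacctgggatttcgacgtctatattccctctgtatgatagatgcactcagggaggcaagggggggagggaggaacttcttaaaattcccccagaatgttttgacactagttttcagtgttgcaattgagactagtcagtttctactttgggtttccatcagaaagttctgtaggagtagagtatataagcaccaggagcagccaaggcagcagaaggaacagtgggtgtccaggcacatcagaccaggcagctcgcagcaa
Il6: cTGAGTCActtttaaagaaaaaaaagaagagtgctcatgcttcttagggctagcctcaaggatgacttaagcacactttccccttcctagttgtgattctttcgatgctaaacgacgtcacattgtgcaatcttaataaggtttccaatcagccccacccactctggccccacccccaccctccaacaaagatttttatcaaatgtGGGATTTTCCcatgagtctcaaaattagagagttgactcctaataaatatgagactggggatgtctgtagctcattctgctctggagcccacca
Cxcl10: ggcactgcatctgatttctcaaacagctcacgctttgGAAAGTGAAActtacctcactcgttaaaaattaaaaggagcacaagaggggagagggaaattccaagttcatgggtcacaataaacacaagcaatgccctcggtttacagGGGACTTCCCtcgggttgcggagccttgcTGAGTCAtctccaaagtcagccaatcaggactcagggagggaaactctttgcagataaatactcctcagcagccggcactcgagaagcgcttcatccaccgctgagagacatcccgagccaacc
In the Il6 window the κB match GGGATTTTCC runs from -44 to -35 relative to the start, and TGAGTCA from -249 to -243. In the Cxcl10 window GGGACTTCCC runs from -103 to -94, TGAGTCA from -74 to -68 and GAAAGTGAAA from -213 to -204. No match overlapped another in these windows, and the Il12b window held none of the letters searched.

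Both strands of all promoter windows were searched for the same letters, chosen with the expression results known. Of 51 genes that rose 41 had a window. The κB letters stood in 6 of the 41 (14.6%), namely Casp4, Ccrl2, Cxcl10, Il6, Rel and Tlr2, and in 6.17% of all 14452 tested genes with a window. The AP-1 letters stood in 7 (17.1%), namely Csrnp1, Cxcl10, Il1a, Il6, Lif, Nfkbie and Prdm1, and in 7.54% of all. Among the 46 genes with a window that were higher with the block only, the κB letters stood in 8 (17.4%) and the AP-1 letters in 4 (8.7%). The interferon-stimulated letters were in 1 of the 41 windows (2.44%, against 3.63% of all), the cAMP response element TGACGTCA in 1 (2.44%, against 2.92%) and the TATA box letters TATAAA in 5 (12.2%, against 11.5%). The palindromic estrogen response element (GGTCA, any 3 bases, TGACC) was in none of the 41 windows and in 5 of 14452 (0.0346%). These shares describe letters in a short window and were not tested.

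Costimulatory and activation surface molecules gave 5 of the rises. Cd40, a TNF receptor family member through which T cells activate macrophages, read 8.54, 8.7 and 8.32 on control arrays and 9.83, 10.12 and 10.18 on estradiol arrays (1.52, SE 0.16, 2.87-fold, adjusted p = 0.00129). Cd83, a marker of mature dendritic cells, read 11.89, 11.13 and 11.19 against 12.62, 12.59 and 12.7 (1.23, adjusted p = 0.0266). Of 12 dendritic cell markers, Cd83 included, 11 did not pass, 6 were above 0 and the median was 0. Cd69, an early activation antigen, read 8.66, 8.16 and 8.06 against 9.52, 9.58 and 9.45 (1.22, adjusted p = 0.00333). Control replicate 1 was the highest control array for both Cd83 and Cd69, and the estradiol arrays of each lay close together. Cd274, which encodes the checkpoint ligand PD-L1, rose by 1.09 (adjusted p = 0.00129) and Icam1, the adhesion molecule bound by leukocyte integrins, by 1.04 (SE 0.1, adjusted p = 0.000669). Of 18 measured costimulatory and activation molecules these 5 rose and 13 did not pass, with a median of 0.42. Pvr, a nectin-like ligand of T and NK cell receptors that is in no list here, rose by 0.8 (adjusted p = 0.00333). The call of Cd83 was lost without control replicate 2 or 3 or any single estradiol array, and after median centring of the arrays.

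In the NF-κB pathway an activator, a subunit and an adaptor rose. Malt1, a protease and scaffold that links antigen and pattern receptors to NF-κB, read 8.42, 8.99 and 8.26 on control arrays and 10.01, 10.3 and 10.1 on estradiol arrays, a rise of 1.58 (SE 0.21, 2.99-fold, adjusted p = 0.00433). The groups were more than 1 apart at their nearest arrays. Other Malt1 probe sets gave 1.48 and 1.29 and did not pass (adjusted p = 0.389 and 0.0784 over all probe sets). Rel, the subunit c-Rel, read 7.2, 6.89 and 6.83 against 7.89, 7.92 and 7.79 (0.89, adjusted p = 0.00433). Traf1, an adaptor of TNF receptors, read 9.04, 9.16 and 9.09 against 9.94, 9.98 and 10.02 (0.88, adjusted p = 0.00579) and lost its call without estradiol replicate 3. Of 19 measured activators and subunits 3 rose, 16 did not pass and 17 were above 0 (as were 53.2% of all genes), with a median of 0.44 (0.27 after a second quantile normalization) against 0.01 over all genes. Nfkb2, the p100 subunit, had 0.57 (adjusted p = 0.0766) with no overlap between groups. All estradiol arrays were above all control arrays for 13 of the 19 genes and for 6.75% of all genes. The mean level of the list was 8.35 to 8.64 on control and 8.93 to 9.04 on estradiol arrays.

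Feedback inhibitors of NF-κB and other inflammatory signalling gave 2 of the rises. Nfkbie, which encodes IκBε, had the smallest p of all genes: it read 9.78, 9.74 and 9.62 on control arrays and 10.79, 10.83 and 11.07 on estradiol arrays, a rise of 1.19 (SE 0.11, 2.27-fold, adjusted p = 0.000669). A second Nfkbie probe set gave 1.26 (adjusted p = 0.00413 over all probe sets). Socs3, an inhibitor of cytokine signalling through STAT3, rose by 0.75 (adjusted p = 0.0355), from 12.21, 12.01 and 11.68 to 12.81, 12.67 and 12.68. Of 21 measured feedback inhibitors these 2 rose, 19 did not pass, and the median was 0.32. With the block 4 passed, among them Tnfaip3, the ubiquitin editor A20 (0.7, adjusted p = 0.0765 without and 0.0345 with the block), and its partner Tnip1 (0.7, 0.0957 and 0.0252). Socs3 lost its call without control replicate 2 or 3 or any 1 estradiol array, and with the mean of its probe sets, median centring or the 6 CD44+ arrays alone. Zc3h12c, of the Regnase family of RNA-degrading proteins, rose by 1.15 (adjusted p = 0.00333) outside this list.

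Inflammasomes are complexes that process interleukin 1, and 2 of their genes rose. Mefv, which encodes the inflammasome sensor pyrin, read 8.23, 8.59 and 8.08 on control arrays and 9.39, 9.89 and 9.75 on estradiol arrays, a rise of 1.38 (SE 0.16, adjusted p = 0.00217). Casp4, the caspase that senses bacterial lipopolysaccharide inside the cell, read 9.35, 9.4 and 9.28 against 10.18, 10.33 and 10.53 (1, SE 0.12, adjusted p = 0.00297). These were 2 of 10 inflammasome genes, all 10 of which had differences above 0 (53.2% of all genes did), with a median of 0.27, or 0.18 after a second quantile normalization; Nlrp3 had 0.46 (adjusted p = 0.158). Tlr2, the receptor of bacterial lipoproteins, was the 1 of 18 pattern receptors to rise (0.83, adjusted p = 0.00873, list median 0.19), and lost its call without estradiol replicate 2. Cd14, the lipopolysaccharide coreceptor, had 0.48 (adjusted p = 0.125). None of 25 cytokine receptors passed in limma, with or without the block (median 0.12); Tnfrsf1b, a TNF receptor, had 0.84 (adjusted p = 0.719).

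Enzymes of inflammatory mediators included Ptgs2, which encodes COX-2, the inducible first enzyme of prostaglandin synthesis. Ptgs2 read 10.29, 10.08 and 9.78 on control arrays and 11.34, 11.56 and 11.29 on estradiol arrays, a rise of 1.35 (SE 0.16, 2.55-fold, adjusted p = 0.00219). A second Ptgs2 probe set gave 0.84 and did not pass (adjusted p = 0.404 over all probe sets). Ptgs2 was the 1 of 20 eicosanoid genes to rise, and the list median of 0.09 turned to -0.02 after a second quantile normalization. Ptges, the prostaglandin E synthase, passed with the block only (0.66, adjusted p = 0.513 without and 0.0374 with it). Pde4b, which degrades cyclic AMP, read 10.23, 9.95 and 9.83 against 11.04, 11.28 and 11.54 (1.28, adjusted p = 0.0117) and lost its call without control replicate 2 or 3 or estradiol replicate 2 or 3. Its other probe sets above background gave 0.91 (adjusted p = 0.00677 over all probe sets) and 0.43 (adjusted p = 0.953, not passed). Acod1, which makes the antimicrobial metabolite itaconate, had 1.61, from 10.06, 11.11 and 10.87 to 11.76, 12.54 and 12.57. It passed with the block only (adjusted p = 0.0957 without and 0.00077 with it), and replicate 1 was the lowest array in both groups.

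Transcription and chromatin regulators were also among the rises. Kdm6b, a demethylase of histone H3 lysine 27 that macrophages induce on activation, read 10.34, 9.9 and 9.76 on control arrays and 11.35, 11.43 and 11.53 on estradiol arrays (1.43, SE 0.18, 2.7-fold, adjusted p = 0.00308). Other probe sets of Kdm6b alone gave 1.09 and 0.36 and did not pass (adjusted p = 0.58 and 0.888 over all probe sets). Kdm6b was the 1 of 13 genes of its list to rise, and 12 did not pass (median 0.14). That list holds lysine demethylases, genes of H3K27 methylation such as Ezh2 and Suz12, and the Y-linked Uty. Maff, a small Maf factor, read 8.85, 8.53 and 8.21 against 9.65, 10.13 and 10.07 (1.42, adjusted p = 0.0155), the 1 riser of 18 AP-1 and Maf genes (median 0.31). Prdm1, which encodes the repressor Blimp-1, read 9.44, 9.39 and 8.78 against 10.26, 10.6 and 10.33 (1.19, adjusted p = 0.0155). For all 3 genes control replicate 3 was the lowest array. Csrnp1, a nuclear protein of the immediate early kind, read 9.82, 9.34 and 9.22 against 10.53, 10.92 and 10.41 (1.16, adjusted p = 0.0319). Dusp4, a phosphatase of MAP kinases, read 9.48, 9.51 and 9.18 against 10.35, 10.89 and 10.46 (1.17, adjusted p = 0.00307), the 1 riser of 12 such phosphatases.

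Other factors rose by less than 1: Ets2 by 0.91 (adjusted p = 0.00559), Mxd1, an antagonist of Myc, by 0.79 (adjusted p = 0.0332), and Spic, a factor of iron-recycling macrophages, by 0.79 (adjusted p = 0.0186). Maff, Csrnp1, Mxd1 and Spic lost their calls without control replicate 2 or 3 or estradiol replicate 2 or 3, Csrnp1 and Mxd1 also without estradiol replicate 1. Prdm1 did so without control replicate 3 or estradiol replicate 2 or 3, and Ets2 without estradiol replicate 3. Mxd1 had another probe set above background that pointed down (-0.18, not passed). Csrnp1 and Mxd1 also lost their calls with probe sets averaged per gene or median centring, and Mxd1 with the 6 CD44+ arrays alone.

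Among interferon genes 2 rose. Ifnb1, interferon β, rose by 0.7 (SE 0.11, adjusted p = 0.0127), from 4.94, 4.7 and 4.72 to 5.51, 5.42 and 5.53, just above background. Irf1, a transcription factor of the interferon response, rose by 0.96 (adjusted p = 0.0295), from 12.66, 12.3 and 12.03 to 13.21, 13.37 and 13.27. Both lost their calls without control replicate 2 or 3 or any 1 estradiol array. They were 2 of 15 interferon, IRF and STAT genes (median 0.17). None of 22 interferon-induced effectors passed (median 0.24), and 2 did with the block, the antiviral Rsad2 (0.79, adjusted p = 0.0783 without and 0.038 with it) and the GTPase Gbp3 (1.05, 0.309 and 0.0361).

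The function and marker lists together held 556 of the 18193 genes and were chosen with earlier results of these data known. Of the 51 rises 28 stood in the 26 function lists and 23 in no list, markers included, a description and not a test. Among the latter was 2610024D14Rik, a RIKEN transcript, which read 6.21, 6.21 and 5.58 on control arrays and 7.69, 7.98 and 7.96 on estradiol arrays (1.88, SE 0.31, adjusted p = 0.0175). Its second probe set, at background, gave 0.01. Rab20, a small GTPase of phagosomes that is in the membrane traffic list, read 8.58, 8.17 and 8.21 against 9.36, 10.08 and 9.69 (1.39, adjusted p = 0.0186). Its pairs differed by 0.77, 1.91 and 1.48. The Cdc42 effectors Cdc42ep4 (1.04, adjusted p = 0.00333) and Cdc42ep2 (0.87, adjusted p = 0.0332), the SNARE protein Stx11 (0.99, adjusted p = 0.00884) and the actin regulator Marcksl1 (0.95, adjusted p = 0.00568) rose. So did the calcium channel Orai2 (0.93, adjusted p = 0.0119), the stress-induced Nupr1 (0.92, adjusted p = 0.00579), the kinase Pim3 (0.83, adjusted p = 0.00579), the folate enzyme Mthfs (1.01, adjusted p = 0.00217) and Ifrd1 (1.01, adjusted p = 0.0437). The smaller rises were Trim13 (0.85), Arhgef3 (0.83), the orphan receptor Gpr85 (0.82), Igsf6 (0.8) and the peptide transporter Slc15a3 (0.57), with adjusted p from 0.0155 to 0.0494. Igsf6 and Slc15a3 lost their calls without any 1 of the 6 arrays and with the block (adjusted p = 0.0553 and 0.0707). Without estradiol replicate 3, the fit with the fewest calls, all of these lost theirs except Cdc42ep4, Pim3 and Mthfs. The calls of 2610024D14Rik, Rab20, Orai2, Arhgef3 and Gpr85 were also lost without control replicate 2 or 3 or estradiol replicate 2, as were those of Trim13 and Ifrd1. Arhgef3 and Ifrd1 lost theirs without estradiol replicate 1, Trim13 and Cdc42ep2 without control replicate 1, Cdc42ep2 also without control replicate 2 or estradiol replicate 2, and Stx11 without control replicate 3 or estradiol replicate 2. A second quantile normalization ended the calls of Trim13, Cdc42ep2, Igsf6 and Slc15a3, median centring those of Ifrd1, Igsf6 and Slc15a3, and the fit to the 6 CD44+ arrays alone those of Trim13, Cdc42ep2, Ifrd1 and Slc15a3.

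Both falls were smaller than the leading rises. Zscan22, a zinc finger protein, read 7.55, 7.63 and 7.46 on control arrays and 6.79, 6.69 and 6.7 on estradiol arrays and fell by 0.82 (SE 0.12, adjusted p = 0.0119). A second probe set gave -0.41 (adjusted p = 0.404 over all probe sets), with no overlap between groups, an order that 5.92% of all genes showed. Ttc30a1, of the intraflagellar transport machinery, read 5.31, 5.11 and 5.08 against 4.66, 4.69 and 4.39 and fell by 0.59 (SE 0.11, adjusted p = 0.0494), near background. Zscan22 lost its call without control replicate 2 or estradiol replicate 2 or 3, and Ttc30a1 when any 1 of the 6 arrays was left out, and with either other scaling, the 6 CD44+ arrays alone or the Gapdh covariate. The block added 6 lower genes: Zfp472 (-1.02, adjusted p = 0.0137 with the block), the pseudogene Hmga2-ps1 (-0.78, 0.0137), Zfp82 (-0.68, 0.0284), AI467606 (-0.65, 0.0356), 2810021J22Rik (-0.64, 0.0284) and Zfp74 (-0.61, 0.0284). Of the 8 lower genes with the block 4 have Zfp or Zscan names, which 346 of all genes (1.9%) have, with a median of -0.09. This grouping was chosen after the values were seen. Txnip, an inhibitor of thioredoxin that responds to glucose, had -0.69 (adjusted p = 0.125, and 0.0604 with the block).

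The block added 58 higher genes. After Acod1 and Cxcl3 the smallest p-values belonged to Fpr2, a formyl peptide receptor of phagocytes, with 9.34, 10.61 and 10.36 on control and 10.75, 11.55 and 11.58 on estradiol arrays (1.19, adjusted p = 0.529 without and 0.00273 with the block). Others were the sugar transporter Slc2a6 (0.88, adjusted p = 0.00615 with the block), the osteocyte matrix protein Dmp1 (1.12, 0.00636, control mean at background), the GTPase Gbp6 (1, 0.00781) and the apoptosis inhibitor Birc3 (0.85, 0.0121). Cavin1, a caveolar protein (0.91, 0.0125), and Plod2, a collagen lysyl hydroxylase (0.87, 0.0143) also passed. For Cavin1, Plod2 and the mesenchymal marker Acta2 replicate 1 was the highest and replicate 2 the lowest array in each group. Cavin1 read 8.09, 6.5 and 6.7 on control and 8.7, 7.6 and 7.73 on estradiol arrays, and its groups overlapped. The mesenchymal list stood at 6.53 to 7.26 on control and 6.76 to 7.39 on estradiol arrays, and its part in these results was not tested. None of 20 collagen and matrix genes passed without the block, and 1, Tnc, did with it (0.66, adjusted p = 0.0307). Their median was 0.43, beside 0.44 for the NF-κB activators, and their groups overlapped for all 20 genes.

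**Figure D3:**
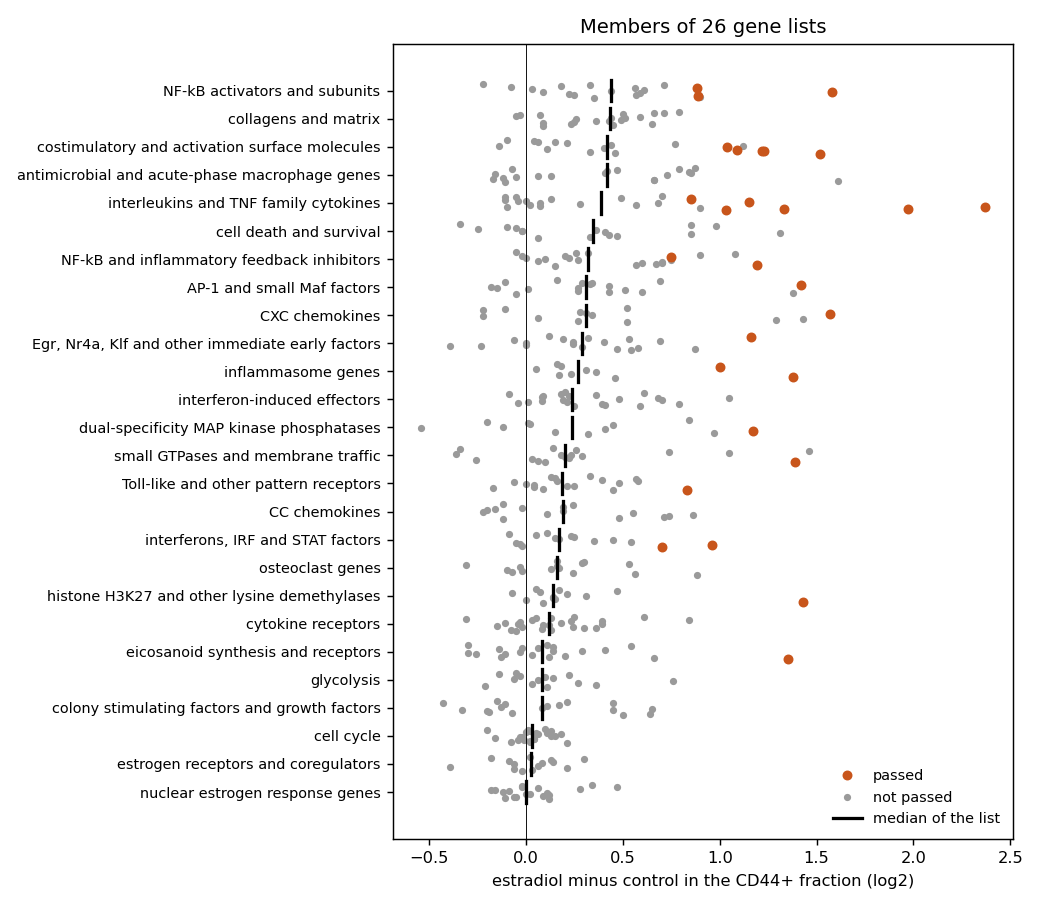
Each point is the estradiol minus control difference (log2, horizontal) of 1 measured member of the 26 function lists (vertical), filled in orange where it passed. Black bars are list medians, which run from 0 for the nuclear estrogen response genes to 0.44 for the NF-κB activators and subunits.

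Genes listed here for the nuclear estrogen response did not pass. Whether genes outside this list answered through the nuclear receptors was not tested. Of 19 measured members 16 were above background. None passed with limma, with or without the block, 10 were above 0 and the median was 0. It lay between -0.07 and 0.07 over the settings tried. Pgr, the progesterone receptor and a standard target of estrogen, read 3.69, 3.73 and 3.96 on control and 4.15, 3.86 and 3.74 on estradiol arrays, all at background. The receptor gene Esr1 read 7.7, 7.5 and 7.64 against 7.55, 7.5 and 7.73 (-0.02, 95% interval -0.35 to 0.32). Esr2 read 4.39, 4.3 and 4.03 against 4.03, 4.31 and 4.47, and Gper1 3.83, 3.94 and 4.18 against 3.91, 3.88 and 3.97, both near background in both groups. Of the receptors Esr1 alone was thus clearly above the Y-linked level, and its level overlapped between groups. The signs of the Esr1, Esr2, Gper1 and Pgr differences turned in 1 or more settings.

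Lists for bone resorption, metabolism and growth held no gene that passed. None of 15 osteoclast genes passed (median 0.16), and Acp5, the osteoclast acid phosphatase, had 0.88 (adjusted p = 0.0623). None of 14 glycolysis genes (median 0.08, -0.08 after another scaling) or 24 cell cycle genes (0.03, -0.11) passed, and the groups overlapped for every member of both lists. Among 17 colony stimulating and growth factors none passed and 2 did with the block: Csf2, which encodes GM-CSF (0.64, adjusted p = 0.162 without and 0.0378 with it), and Pdgfb (0.65, 0.602 and 0.0496). Among the marker lists Cd83 was the member that passed. The macrophage list stood at 10.36 to 10.52 on control and 10.49 to 10.61 on estradiol arrays. Its part in the rises of macrophage genes was not tested.

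Probe sets that were not chosen gave a check within the same arrays. Of the 53 genes 25 had more than 1 probe set, with 45 others in all. Of these 35 were above background, 34 had the direction of the chosen one and 12 passed in a fit over all 45037 probe sets (87 passed, 0.193%). Both other Cd40 probe sets differed by 1.35 and 1.09. Probe sets of 1 gene share the RNA of each array and are not further replicates.

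Whether the changes differed from those of c-kit+ cells was tested as the difference of the effects. No gene passed that test with limma (0 of 18193, with 296 or 1.63% at an unadjusted p under 0.05). In c-kit+ cells 33 genes passed (0.181%), and 25 were shared, which is 47.2% of the CD44+ genes and 75.8% of the c-kit+ genes. The calls in both fractions used the same pooled estimate of each gene's spread, so they were not independent. All 53 CD44+ genes had the same sign in c-kit+ cells, with a median of 0.86 over the 51 rises against 1.03 in CD44+ cells. The same-sign share over all genes was not counted. The labels do not say whether CD44+ and c-kit+ arrays of equal replicate number came from the same culture. The shared signs may therefore not be independent, and no fit linked arrays across the fractions. The estimate was larger in CD44+ cells for 45 of the 53, which were selected on it. Cdc42ep4 was the 1 of the 53 with an unadjusted p under 0.05 for the difference (0.5, 95% interval 0.1 to 0.9, unadjusted p = 0.0191, adjusted p = 1). Malt1 differed by 0.64 (0 to 1.28, unadjusted p = 0.051) and Il6 by -0.7 (-1.51 to 0.12, unadjusted p = 0.0868). For Il12b the difference was 0.05 (-0.63 to 0.74) and for Cxcl10 0.01 (-0.46 to 0.48), so effects that differ between the fractions by up to these bounds are within the error.

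**Figure D4:**
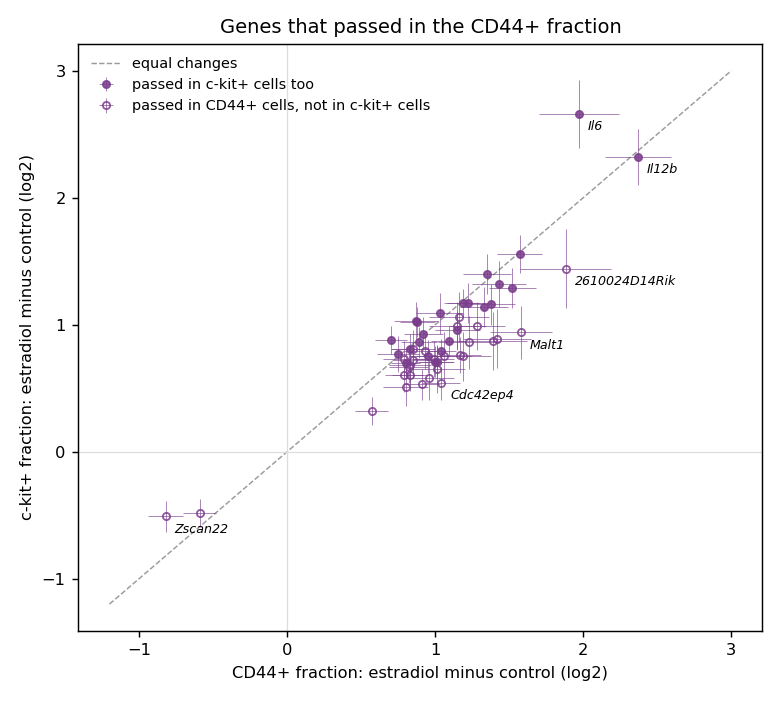
Estradiol minus control (log2) in c-kit+ cells (vertical) against CD44+ cells (horizontal) for the 53 genes that passed in CD44+ cells, with bars of 1 SE. Filled points passed in both fractions, the dashed line marks equal changes, and Il6 lies above it while Malt1 and Cdc42ep4 lie below.

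How many genes passed depended on single arrays. Without control replicate 1 the count was 76, without control replicate 2 it was 29 and without control replicate 3 it was 30. Without estradiol replicate 1 it was 49, without estradiol replicate 2 it was 29 and without estradiol replicate 3 it was 22. In all 6 of these fits 21 genes kept their calls, among them Il12b, Il6, Malt1, Cxcl10, Cd40, Kdm6b, Mefv, Ptgs2, Il1b, Cd69, Nfkbie, Dusp4, Cd274 and Icam1. All 53 kept their direction in every setting that tested them. RNA quality, read as the 3′ minus 5′ difference of the Gapdh control probe sets, was 2.83 to 4.14 on control and 3.32 to 4.31 on estradiol arrays of CD44+ cells. On c-kit+ arrays it ran higher, from 4.23 to 6.17, which limits the comparison of the fractions. With it as a covariate the difference of the effects gave 0 genes.

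**Figure D5:**
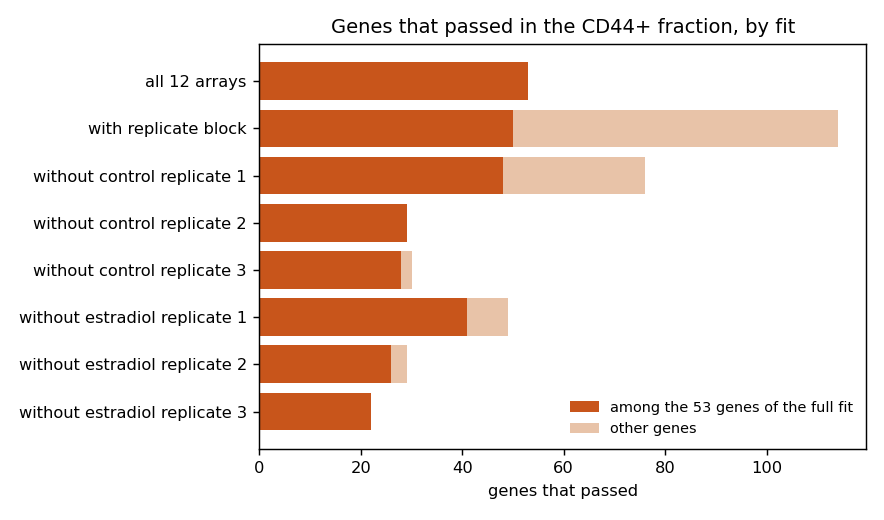
Number of genes that passed in CD44+ cells (horizontal) in the fit to all 12 arrays, with the replicate block and without each CD44+ array in turn (vertical). The dark part counts those among the 53 of the full fit, from 22 without estradiol replicate 3 to 50 with the block.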

How the data were processed

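Total RNA of 12 samples was amplified in 2 rounds and put on Affymetrix mouse arrays as biotin-labelled cRNA, per the labels. The deposited log2 values were made by the authors with RMA, per the submitters' processing notes; no version of RMA is given in the sources used here. They run from 2.47 to 14.81, with array medians of 4.75 to 4.84, and entered unfiltered. Of 45101 probe sets 34945 named 1 gene, 932 several and 9160 none in the platform's annotation, and 64 were controls. Symbols were checked through Entrez numbers (34741 matched, 0 changed). Each of 18193 genes took the probe set whose mean over the 12 arrays was highest.

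limma 3.58.1 (R 4.3.3) fitted 1 mean per group over all 12 arrays with empirical Bayes moderation, two-sided, with p-values adjusted over all genes (Benjamini-Hochberg) and called under 0.05. The contrasts were estradiol minus control in each fraction and the difference of the effects. Standard errors and 95% intervals are those of this fit, and folds are powers of 2. The alternative with the replicate number as a block, within each fraction, stands beside results because every same-number correlation of the CD44+ arrays exceeded 0.1. Such correlations were not computed for the c-kit+ arrays. The pipeline was tested on simulated data. Tables and figures used Python 3.11.15, pandas 2.3.3 and matplotlib 3.10.9.

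Members and lists (26 of function and 12 of markers, with 582 of 636 entries measured) were chosen with earlier results of these data known. Any gene that passed could be named, with values per array for the 20 largest rises, both falls, Cd44, Kit and the estrogen receptors, up to 4 members of smallest p per list, and the 10 of smallest p each way with the block alone. The background level uses Y-linked probe sets with unique probes, a choice made after a cross-hybridizing one was seen to be bright. Alternatives changed the probe sets, scaling, filters, moderation, array weights, block, covariate, threshold and arrays.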

Additional observations from a re-analysis of the deposited data

Results flagged for a closer look

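The comparisons use probe sets that name 1 gene. Among those that name none or several, 15 passed in a limma fit over all 45037 probe sets, 14 higher with estradiol in CD44+ cells and 1 lower; 5 of the 15 name several genes. The 6 of smallest p were signals outside the main measurement, above the control arrays on all 3 estradiol arrays. Their estradiol minus control differences (log2, 3 arrays against 3) were 1.11 for 1418536_at, which names 2 class I histocompatibility genes, 1.07 for 1427932_s_at, 1.04 for 1460064_at, 1.03 for 1437111_at, 0.97 for 1436196_at and 0.76 for 1450173_at, and adjusted p ran from 0.00824 to 0.0215. The brightest, 1427932_s_at, read 12.17, 12.26 and 11.9 on control and 12.9, 13.26 and 13.38 on estradiol arrays.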

How the results depend on the processing

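Of the settings tried, the number of genes that passed in CD44+ cells (53) moved by over 1.5 times with array weights (1405 genes, 903 higher and 502 lower), the replicate block (114), the block on the 6 CD44+ arrays alone (223), a threshold of 0.1 (88) and a change of at least 1 (29). Without 1 CD44+ array it ran from 22 to 76. Weights gave control replicate 2 a value of 9.38 and the other CD44+ arrays 0.42 to 1.48; without that array the weighted fit gave 30, and without c-kit+ control replicate 3 the plain fit gave 97. Both of these were chosen after seeing the data. Counts from 45 to 70 came from median centring (45), quantile normalization (52), the mean of probe sets (63), 6 arrays alone (58), a covariate for Gapdh 3′ minus 5′ (68) and a trend with robust moderation (70). The difference of the effects gave 0 genes in every setting run. All 53 genes kept their direction wherever tested, and 18 kept their call in every fit at the main threshold; Il12b, Il6, Mthfs, Ifnb1, Lif and Ttc30a1 were not tested among genes at or above the median level. A second quantile normalization lowered the list medians printed above by over 1.5 times for CC chemokines (to 0.04), cytokine receptors (0.05), pattern receptors (0.09) and interferon, IRF and STAT genes (0.08). The same held for interferon-induced effectors (0.15), the list of Kdm6b (0.02), AP-1 and Maf genes (0.2) and collagens (0.27).

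Signs turned for genes near 0. With the mean of probe sets Esr1 had 0.11, Gper1 0.06, Pgr -0.01 and the cell cycle gene Tyms 0.01. With array weights Esr1 had 0.07 and Esr2 -0.01, and Kit had 0.01 with weights and without control replicate 2. Over the fits without 1 CD44+ array Esr1 ran from -0.09 to 0.03 (above 0 without control replicate 1 or estradiol replicate 2), Esr2 from -0.07 to 0.15 (below 0 without control or estradiol replicate 3), Gper1 from -0.14 to 0.04 and the demethylase Kdm1a from -0.02 to 0.38 (both turned without control replicate 3), and Kit from -0.19 to 0.02 (above 0 without control replicate 2). The cause was not tested. Signal near background limits Il12b, Il6, Ifnb1, Ttc30a1, Dmp1 and Cxcl5, and 3 arrays a group limit every value.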
